A study of Mus musculus with 4 samples.

Results

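Collagens and other genes of the extracellular matrix were followed over 4 microarrays of cultured mouse macrophages. The set held 40 listed genes, and its members were the array probes that carried one of these gene names. A probe was found for 39 of the 40, out of 23500 gene names on the array. The exception was Col6a3, a chain of collagen VI. For each gene the brightest probe was used, so that 1 probe stood for each of the 39 genes. 28 genes had a single probe and 11 had more.

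Bone marrow cells of C57BL/6J mice, 10 weeks of age, were grown for 6 days with culture supernatant of L929 cells, which supplies M-CSF and turns marrow cells into macrophages (bone marrow-derived macrophages, BMDMs). They were then stimulated for 2 days, and RNA of 1 culture per condition was labelled with Cy3 and hybridised to 1 array. Wild-type M1 cells received IFN-γ at 20 ng/ml with LPS at 100 ng/ml, and wild-type M2 cells received IL-4 at 50 ng/ml. Lamtor1-deficient M2 cells, whose genotype the labels give as p18 (2400001E08Rik) -/-, received the same IL-4. Torin1-treated M2 cells were wild type and received the same IL-4 with Torin1, an inhibitor of the kinase mTOR, at 250 nM. In the study's methods the mutant animals carried floxed Lamtor1 alleles and a heterozygous LysM-Cre transgene, which is active in cells of the myeloid lineage. Lamtor1 holds the amino acid-sensing complex that activates mTORC1 on the lysosome, and the comparisons ask which genes need Lamtor1 or mTOR in IL-4-stimulated cells. M2 cells were the control of all 3 comparisons, so the 3 share that array.

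The extracellular matrix is the protein and sugar scaffold between cells. Fibril-forming collagens give it tensile strength, basement membrane proteins form thin sheets under epithelia and around vessels, elastic fibres give recoil, and matricellular proteins such as osteopontin act on cells more than they bear load. Collagen fibrils are made mostly by stromal cells, that is, fibroblasts, smooth muscle cells, osteoblasts and their relatives. Macrophages are known to make and secrete a smaller set, of which fibronectin, transforming growth factor beta-induced protein and osteopontin are the best described, and those of the IL-4-stimulated kind are linked to wound repair and fibrosis.

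The members were therefore read in 3 classes, drawn from general knowledge of the genes and not from these arrays. Macrophages themselves may express Fn1, Tgfbi, Spp1, Thbs1, Vcan and Bgn, 6 genes. Basement membrane genes Col4a1, Col4a2, Col18a1, Nid1, Lamb1 and Lamc1 and the collagen chaperone Serpinh1, 7 genes, are made by many cell types. The other 26 genes with a probe were read as pointing to stromal cells and form the stromal class. They include the fibril-forming and type VI collagens, Sparc, Postn, Lox, Dcn and Lum. Which cells made them in these cultures was not tested. In RNA of a whole culture, fewer cells of a type and less RNA per cell cannot be told apart.

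Each value below is a normalized signal, the probe's processed signal divided by the 75th percentile of its own array, so that 1 is the level of that percentile. It compares 1 probe over arrays and does not rank genes against each other. The 75th percentile was 287 intensity units in M1, 595 in M2, 536 in the Lamtor1-deficient and 470.0 in the Torin1-treated cells, and 50.9% to 55.4% of probes were well above background. A gene was counted as higher or lower at a difference of at least 2-fold. Where just 1 of the 2 arrays had the probe well above background, the fold was set against the lowest signal well above background on the dim array, or against the probe's own signal there if that was higher, and is written as at least that fold. Spots of a probe printed many times over varied within an array. That scatter, combined over the 2 arrays of a ratio, gave an SD of 0.088 to 0.0998 on the log2 scale. The scanner software's own error of a log2 ratio had a median of 0.205 to 0.207 over members measured on both arrays, with a range of 0.0699 to 0.402. Both errors cover the array measurement only. With 1 array per condition there was no replicate, no test and no p-value, and no difference below can be set against the spread between cultures.

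The labels were checked first. The probe of the targeted gene, 2400001E08Rik (Lamtor1), read 51.2 in M1, 66.3 in M2, 1.55 in the Lamtor1-deficient and 74.96 in the Torin1-treated cells. It was 42.7-fold lower in the Lamtor1-deficient cells than in M2. All 10 macrophage markers were well above background on all 4 arrays, with a summed normalized signal of 494 to 842. None was at least 2-fold higher and 3 were lower in the Lamtor1-deficient as in the Torin1-treated cells (30%, against 6.14% and 9.63% of all genes). The log2 ratios of Cd68, Mertk and Lyz2 were above 0 in both comparisons, between 0.12 and 0.90. Levels of Fcgr1, an activating Fc receptor, were 5.20 in M2, 0.167 in the Lamtor1-deficient and 0.213 in the Torin1-treated cells. Emr1, which encodes the macrophage antigen F4/80, read 112 in M2 but 18.8 and 15.9 in the same cells.

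Of the 39 members, 30 were well above background on all 4 arrays, 8 on some of them and 1, Tnc, on none. The pattern was not the same in the 3 comparisons. Genes that macrophages may express carried the largest drops in the Lamtor1-deficient cells, whereas Torin1-treated and M1 cells also had low levels of fibril-forming and type VI collagens.

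**Figure D1:**
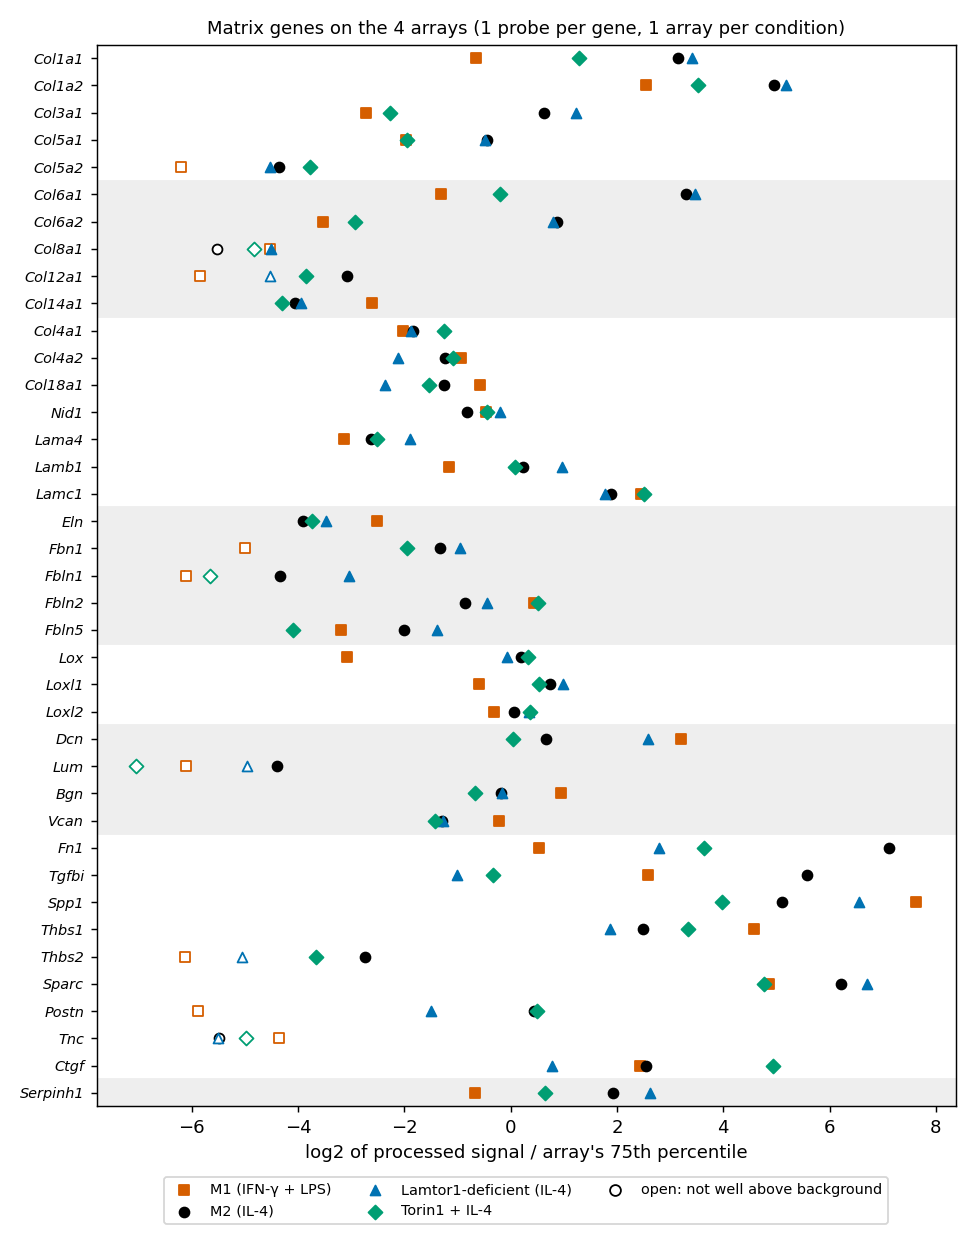
Normalized signal of each matrix gene on the 4 arrays, on a log2 axis (0 is the 75th percentile of the array). Each point is 1 array, open points were not well above background, and grey bands separate the roles from fibril-forming collagens at the top to the chaperone Serpinh1 at the bottom. The M2 and Lamtor1-deficient points of Col1a1, Col1a2 and Col6a1 lie close together, with the Torin1-treated and M1 points to their left, while Fn1 and Tgfbi have the M2 point far to the right of the other 3.

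In the Lamtor1-deficient cells 7 members were lower than in M2 (Tgfbi, Fn1, Thbs2, Postn, Ctgf, Col12a1 and Col18a1) and 3 were higher (Dcn, Spp1 and Fbln1). The 7 were 17.9% of the members, against 6.14% of all genes that were at least 2-fold lower. With normexp background correction 4 were lower, without Col12a1, Col18a1 and Thbs2. The 3 were 7.69%, near the 6.24% of all genes that were at least 2-fold higher, so the count of higher genes says nothing about the matrix set. The median log2 ratio of the members was 0.12, and that of all genes was 0.04. Among genes well above background on both arrays, 5 of 34 members were lower (7.76% of all genes) and 3 were higher (7.84%).

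In the Torin1-treated cells 12 members were lower than in M2 and 2, Ctgf and Fbln2, were higher. The 12 were 30.8% of the members, and 9.63% of all genes were at least 2-fold lower. All 12 were measured well above background on both arrays, and among such genes 13.2% of the whole array was lower and 12% higher. The 2 higher genes were 5.13% of the members, below the 8.62% of all genes. The median log2 ratio was -0.30 for the members and -0.05 for all genes. With the arrays scaled to their medians that of the members was -0.55, against -0.30 for all genes. The values were -0.46 against -0.04 with quantile normalization and -0.50 against -0.05 with the mean of all probes. With normexp correction they were -0.15 against 0.21, so the members stayed below all genes in each of these settings.

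In M1 cells 17 members were lower than in M2 and 8 were higher. The 17 were 43.6% of the members, against 17.2% of all genes. The 8 were 20.5%, near the 19.2% of all genes that were higher. With the arrays scaled to their medians in place of their 75th percentiles the split was 3 higher and 21 lower, since that scaling takes the median log2 ratio of all genes from 0.75 to -0.07. The median log2 ratio of the members was -1.33 over all 39 and -0.44 over the 30 that were well above background on both arrays, where that of all genes was 0.09. With normexp correction the median over all 39 turned to 0.062, and that of all genes was 0.76. Of those 30, 14 were lower and 8 higher, against 25.3% and 25.1% of all genes measured on both arrays.

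**Figure D2:**
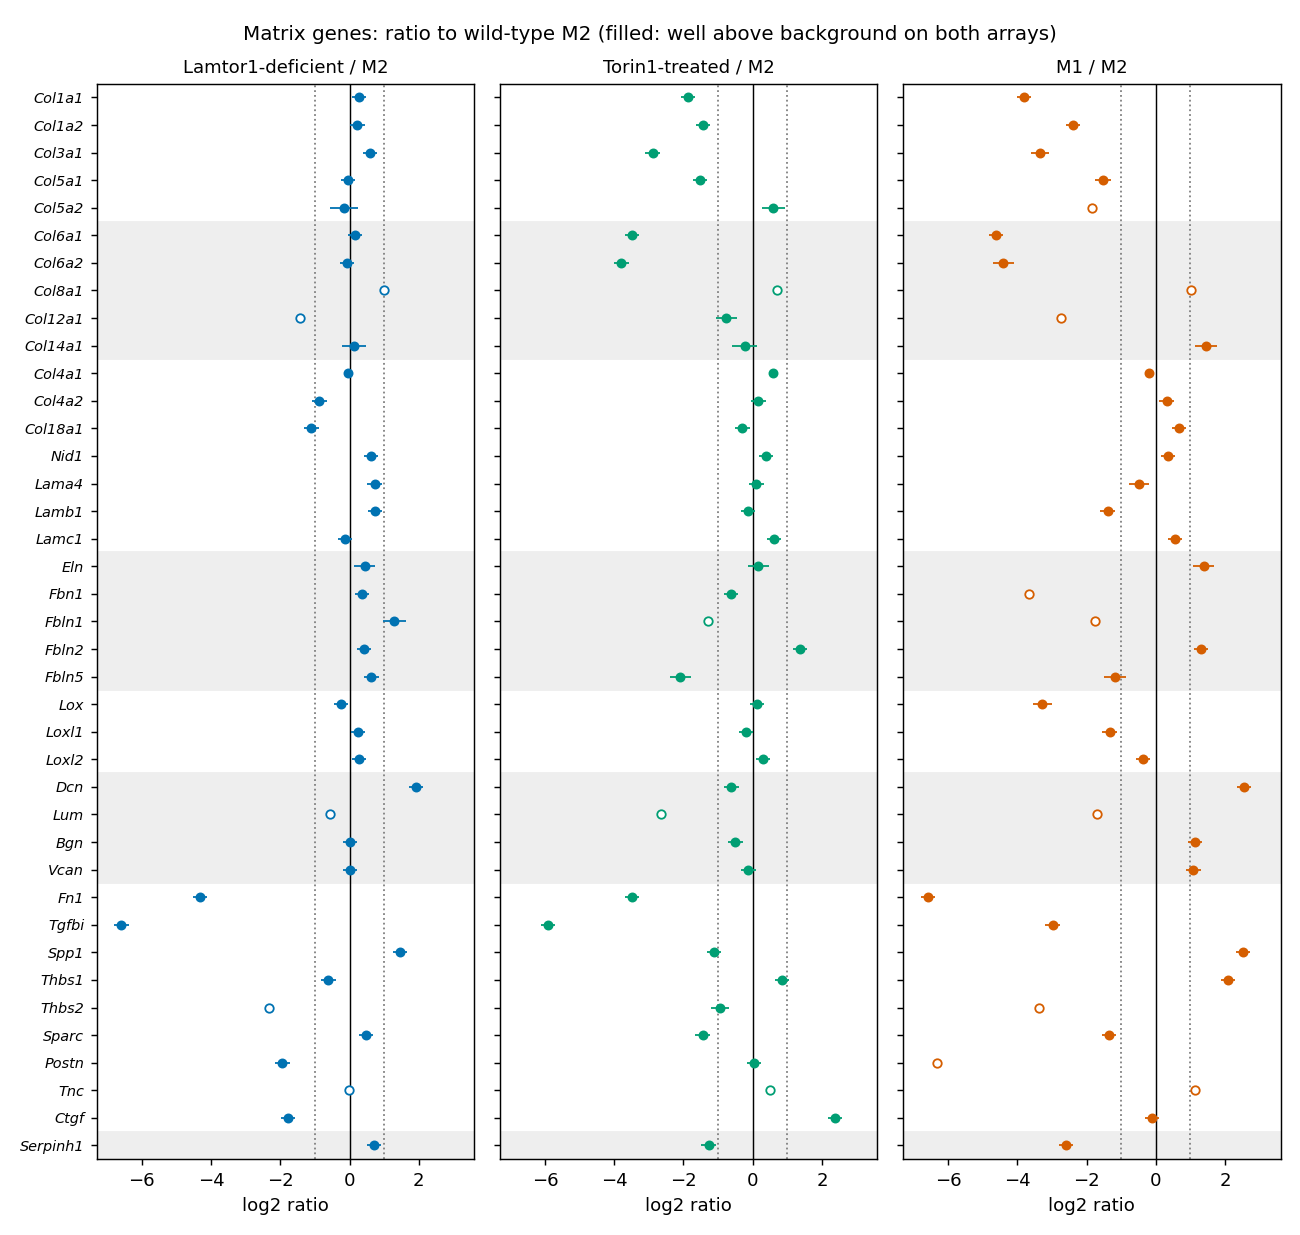
Log2 ratio of each matrix gene to wild-type M2 in the 3 comparisons, with bars for the scanner software's error of the ratio (1 array per condition, no replicate error) and dotted lines at 2-fold. Filled points were well above background on both arrays. In the left panel Tgfbi (-6.59) and Fn1 (-4.33) stand far left of the fibril-forming collagens, whose log2 ratios run from -0.17 to 0.59, and in the middle panel Col6a1 (-3.50) and Col6a2 (-3.80) have moved left as well.

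The fibril-forming collagens came first in the order of roles. Col1a1 and Col1a2 encode the chains of type I collagen, the main fibril of skin, tendon and bone. The normalized signal of Col1a1 was 0.635 in M1, 8.88 in M2, 10.66 in the Lamtor1-deficient and 2.45 in the Torin1-treated cells. That of Col1a2 was 5.86, 30.9, 36.3 and 11.4 in the same order. M1 was lowest and Torin1-treated second lowest for both chains, and the Lamtor1-deficient array was a little above M2, by log2 ratios of 0.26 and 0.23 that were close to the software's error of 0.20. Col1a1 was 3.63-fold and Col1a2 2.71-fold lower with Torin1. In M1 cells they were 14.0-fold and 5.28-fold lower.

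Col3a1 encodes type III collagen, a fibril of elastic tissues and of early scar. Its signal was 0.152 in M1, 1.55 in M2, 2.33 in the Lamtor1-deficient and 0.208 in the Torin1-treated cells. It was 7.43-fold lower with Torin1, the largest drop among the fibril-forming chains there, and 10.2-fold lower in M1. Col5a1 encodes a chain of type V collagen, which starts and limits fibril growth, and read 0.256, 0.739, 0.717 and 0.258. It was 2.87-fold lower with Torin1 and 2.89-fold lower in M1, while the Lamtor1-deficient value lay within error of M2 (log2 ratio -0.04 ± 0.21). With normexp background correction the M1 difference of Col5a1 fell short of 2-fold. Col5a2, the other type V chain and the neighbour of Col3a1 on chromosome 1, with 25.6 kb between their probes, did not follow it. Its dim probe read 0.0485 in M2, 0.0432 in the Lamtor1-deficient and 0.0734 in the Torin1-treated cells and was not well above background in M1. In all, 4 of the 5 fibril-forming chains were at least 2-fold lower with Torin1, the same 4 in M1, and none in the Lamtor1-deficient cells, where 9.63%, 17.2% and 6.14% of all genes were lower.

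Promoter windows were at hand for 24 of the 39 members, from RefSeq on GRCm38.p6, and hold 250 bases before and 50 after an annotated start. Those of a pair of collagens whose signals moved together are shown because their windows differ in make-up, with motifs found on either strand in capitals. The motifs searched were the box of the TATA-binding protein (TATAAA), the box of NF-Y (CCAAT) and the GC box of Sp1 (GGGCGG). 
Col1a2 promoter (chr6:4505368-4505667, + strand): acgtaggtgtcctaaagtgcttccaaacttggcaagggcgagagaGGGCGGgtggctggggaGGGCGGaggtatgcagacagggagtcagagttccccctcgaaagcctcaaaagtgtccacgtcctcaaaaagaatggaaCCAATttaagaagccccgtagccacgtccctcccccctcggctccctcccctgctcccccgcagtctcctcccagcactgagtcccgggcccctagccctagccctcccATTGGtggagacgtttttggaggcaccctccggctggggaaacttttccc
Col3a1 promoter (chr1:45311288-45311587, + strand): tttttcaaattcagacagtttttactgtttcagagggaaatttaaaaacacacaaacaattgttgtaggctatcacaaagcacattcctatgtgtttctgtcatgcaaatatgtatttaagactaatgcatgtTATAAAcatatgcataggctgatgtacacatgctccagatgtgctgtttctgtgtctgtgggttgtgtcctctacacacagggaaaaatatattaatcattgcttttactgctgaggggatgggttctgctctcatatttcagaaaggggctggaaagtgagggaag
The Col1a2 window held 2 GC boxes and 2 CCAAT boxes, and the Col3a1 window a TATA box and neither of the others. TATAAA was present in 13.6% of all 32851 windows, CCAAT in 37.4% and GGGCGG in 35.7%. Such matches describe the letters and are not shown to be bound.

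Collagen VI forms beaded filaments around cells and is one of the more abundant collagens of connective tissue. Col6a1 read 0.402 in M1, 9.86 in M2, 11.005 in the Lamtor1-deficient and 0.874 in the Torin1-treated cells. Col6a2 read 0.0862, 1.83, 1.74 and 0.131. In the processed signals both chains were the most reduced collagens of the Torin1 comparison, 11.3-fold and 13.9-fold, and of the M1 comparison, 24.5-fold and 21.2-fold. The Col6a2 probe was dim in M1, at 24.7 intensity units where the lowest signal well above background was 18.8. In the Lamtor1-deficient cells their log2 ratios were 0.16 and -0.07, within or near the software's error. The 2 genes are neighbours on chromosome 10, with 113 kb between their probes. Col18a1, a basement membrane collagen 344 kb from the Col6a1 probe, had log2 ratios of -0.30 with Torin1 and 0.67 in M1 and so did not share their drop.

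The third chain, Col6a3, had no probe under its own gene name. A probe listed under a transcript identifier and described by the array's annotation as this chain, which stayed outside all counts, read 0.0966 in M1, 1.11 in M2, 0.610 in the Lamtor1-deficient and 0.297 in the Torin1-treated cells. It too was lowest in M1 (11.5-fold) and lower with Torin1 (3.73-fold). Its log2 ratio in the Lamtor1-deficient cells was -0.86, below those of the other chains. The Col6a1 window is shown as it belongs to the most reduced pair. It was the one member window, of 31, that held the AP-1 motif TGANTCA (capitals), which 7.81% of all windows held.
Col6a1 promoter (chr10:76725995-76726294, - strand): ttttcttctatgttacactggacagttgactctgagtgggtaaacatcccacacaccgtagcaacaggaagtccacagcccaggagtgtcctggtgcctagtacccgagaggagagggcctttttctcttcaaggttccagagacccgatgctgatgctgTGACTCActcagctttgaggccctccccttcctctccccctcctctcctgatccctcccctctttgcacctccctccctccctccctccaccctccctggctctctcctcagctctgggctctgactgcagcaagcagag

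Among the remaining collagens of the interstitial matrix, signals were dim. Col12a1, a collagen that sits on fibril surfaces, read 0.118 in M2 and 0.0695 with Torin1 and was not well above background in M1 or in the Lamtor1-deficient cells, where it was at least 2.71-fold lower. It was not counted there with normexp correction. Col14a1, another such collagen, read 0.163 in M1, 0.0598 in M2, 0.0652 in the Lamtor1-deficient and 0.0509 in the Torin1-treated cells. It was 2.72-fold higher in M1, against the direction of the fibril-forming chains. Its log2 ratio there was under 1 when arrays were scaled to their medians or by quantiles, and with the mean of its probes. A second, dimmer Col14a1 probe was above background only in the Lamtor1-deficient cells, and with the mean of its probes the gene was counted as higher there. Col8a1, a network-forming collagen of vessel walls, was well above background only in the Lamtor1-deficient cells, at 0.0437.

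Basement membrane genes varied little under the 75th percentile scaling, although Col4a1 and Lama4 passed 2-fold as lower in M1 with the arrays scaled to their medians, and Lama4 also with quantile normalization. None of the 7 was at least 2-fold different with Torin1, with log2 ratios between -0.30 and 0.61. Col18a1 was the one member of the group counted in the Lamtor1-deficient cells, where it read 0.195 against 0.422 in M2, 0.671 in M1 and 0.343 with Torin1. That was 2.16-fold lower, and it fell short of 2-fold with quantile normalization, with normexp correction and with the mean of its probes. Its second probe gave a log2 ratio of -0.78 there and of -1.28 with Torin1, so the probes disagreed on which of the 2 conditions passed 2-fold. Lamb1, a laminin beta chain, read 0.446 in M1, 1.17 in M2, 1.95 in the Lamtor1-deficient and 1.06 in the Torin1-treated cells and was 2.63-fold lower in M1. Log2 ratios of Lamc1, Lama4 and Nid1, which encode 2 further laminin chains and the linker between laminin and collagen IV, stayed between -0.50 and 0.73 in all 3 comparisons.

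Col4a1 and Col4a2 encode the chains of the collagen IV network and lie head to head on chromosome 8, so their promoter windows overlap. The shared 78 bases are printed because the pair, unlike Col6a1 and Col6a2, was not 2-fold lower in M1 or with Torin1 under the 75th percentile scaling. A GC box is in capitals.
Col4a1 and Col4a2 shared stretch (chr8:11312777-11312854, + strand): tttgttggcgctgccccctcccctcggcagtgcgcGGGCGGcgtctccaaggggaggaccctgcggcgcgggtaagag
Col4a1 read 0.246 in M1, 0.279 in M2, 0.272 in the Lamtor1-deficient and 0.419 in the Torin1-treated cells. Col4a2 read 0.524, 0.423, 0.231 and 0.474. Neither passed 2-fold in any comparison under this scaling. The nearest was Col4a2 in the Lamtor1-deficient cells, at a log2 ratio of -0.87, where Col4a1 stood at -0.04.

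The log2 ratios of all 5 elastic fibre genes lay above 0 in the Lamtor1-deficient cells, from 0.36 to 1.30, and went both ways in the other comparisons. Fbn1 encodes fibrillin, the microfibril on which elastin is laid down. It read 0.400 in M2, 0.514 in the Lamtor1-deficient and 0.259 in the Torin1-treated cells and was not well above background in M1, at least 6.10-fold lower. Fbln5, a fibulin needed to assemble elastic fibres, read 0.109 in M1, 0.249 in M2, 0.385 in the Lamtor1-deficient and 0.0586 in the Torin1-treated cells. It was 4.25-fold lower with Torin1 and 2.28-fold lower in M1, but its second probe was well above background only with Torin1. Averaging the probes turned both log2 ratios to small positive values, and with normexp correction neither passed 2-fold.

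Fbln2 and Fbln1 encode related fibulins. Fbln2 read 1.36 in M1, 0.552 in M2, 0.735 in the Lamtor1-deficient and 1.42 in the Torin1-treated cells. It was 2.58-fold higher with Torin1 and 2.47-fold higher in M1, the one elastic fibre gene counted as higher with the drug. Fbln1 was 2.45-fold higher in the Lamtor1-deficient cells, at 0.121 against 0.0492 in M2, and was not well above background in the other 2 conditions. With normexp correction it was not counted. Eln, which encodes elastin itself, was dim. It read 0.174 in M1, 0.0669 in M2, 0.0905 in the Lamtor1-deficient and 0.0747 in the Torin1-treated cells, and its 2.60-fold higher value in M1 fell under 2-fold with median, quantile and normexp settings.

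Lysyl oxidases crosslink collagen and elastin. Lox read 0.118 in M1, 1.14 in M2, 0.957 in the Lamtor1-deficient and 1.25 in the Torin1-treated cells. It was 9.70-fold lower in M1, and its log2 ratios in the other comparisons were -0.26 and 0.13. Loxl1 read 0.662, 1.67, 1.97 and 1.45, and was 2.52-fold lower in M1. The second probe of Lox gave a log2 ratio of -1.94 in M1 and that of Loxl1 -0.81, short of 2-fold. Loxl2 did not pass 2-fold with its brightest probe, except as lower in M1 with the arrays scaled to their medians, but one of its other probes gave 1.44 with Torin1. Type I collagen and Lox were thus both low in M1, while with Torin1 only the collagen chains were.

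**Figure D3:**
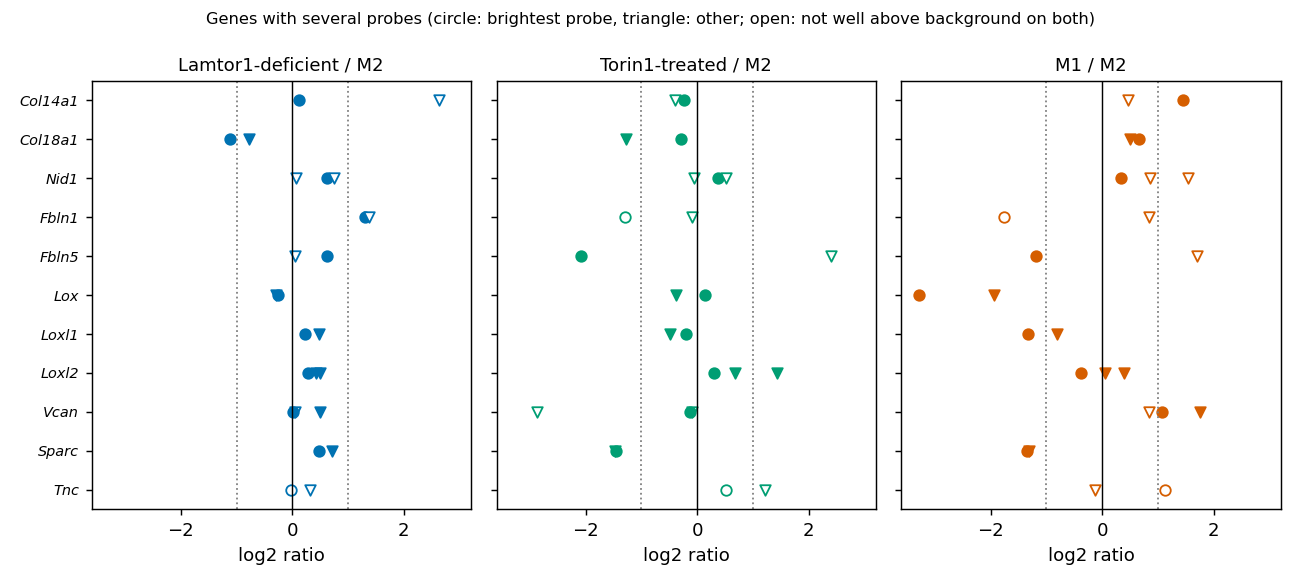
Log2 ratio to wild-type M2 for the 11 genes with more than 1 probe. Circles are the brightest probe, triangles the others, open symbols were not well above background on both arrays, and dotted lines mark 2-fold. The probes of Sparc nearly coincide, those of Loxl2 spread from 0.30 to 1.44 with Torin1, and the open triangle of Fbln5 lies on the other side of 0 from its circle with Torin1 and in M1.

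Serpinh1 encodes the collagen chaperone of the endoplasmic reticulum. It read 0.629 in M1, 3.78 in M2, 6.17 in the Lamtor1-deficient and 1.56 in the Torin1-treated cells. The order over the 4 arrays was that of Col1a1, Col1a2, Col3a1 and Col6a1. It was 2.42-fold lower with Torin1 and 6.00-fold lower in M1. Its log2 ratio in the Lamtor1-deficient cells was 0.71.

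Of 19 further genes that modify, fold or process procollagen, 8 were at least 2-fold lower with Torin1 and 1 was higher. With Lamtor1 deficiency none was lower and 2 were higher, and in M1 5 were lower and 3 higher. The share lower with Torin1 was 42.1%, against 9.63% of all genes, while in M1 the shares were 26.3% lower and 15.8% higher, against 17.2% and 19.2%, and in the Lamtor1-deficient cells 10.53% were higher, against 6.24%. Pcolce, the enhancer of procollagen C-proteinase, had the largest fold among those called with Torin1. It read 4.07 in M1, 11.1 in M2, 16.2 in the Lamtor1-deficient and 1.21 in the Torin1-treated cells, 9.14-fold lower with the drug. Its relative Pcolce2 was 5.94-fold lower with Torin1 (0.126 against 0.751). Adamts3, a procollagen N-proteinase, was at least 4.61-fold higher in the Lamtor1-deficient cells, where it read 0.168, and was not well above background in M2. The median log2 ratio of the 19 genes was -0.83 with Torin1 and 0.15 in the Lamtor1-deficient cells. Among 4 other crosslinking enzymes, Tgm1, a transglutaminase, read 2.69 in M1, 0.0798 in M2, 0.470 in the Lamtor1-deficient and 0.356 in the Torin1-treated cells.

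Small proteoglycans and versican were the one group with no gene lower in M1. Dcn encodes decorin, which coats collagen fibrils. It read 9.27 in M1, 1.58 in M2, 5.96 in the Lamtor1-deficient and 1.03 in the Torin1-treated cells. It was 5.86-fold higher in M1 and 3.77-fold higher in the Lamtor1-deficient cells, the largest increase of any member measured on both arrays there, and its log2 ratio with Torin1 was -0.61. Lum, its neighbour on chromosome 10 (54.98 kb between probes) and a proteoglycan of the same family, was well above background only in M2, at 0.0476, with no fold to give in M1.

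Bgn, a relative of decorin, and Vcan, the large hyaluronan-binding proteoglycan, are among the genes macrophages may express. Bgn read 1.93 in M1, 0.882 in M2, 0.893 in the Lamtor1-deficient and 0.625 in the Torin1-treated cells. Vcan read 0.861, 0.407, 0.411 and 0.373. They were 2.19-fold and 2.12-fold higher in M1, and both fell short of 2-fold with median scaling and with normexp correction. In the Lamtor1-deficient cells both log2 ratios were 0.02.

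Fibronectin and the matricellular proteins held the largest differences. Fn1 encodes fibronectin, a glycoprotein that links cells to collagen. Its probe, on chromosome 1 (chr1:71632116-71632175 on mm9, - strand), read 1.45 in M1, 139 in M2, 6.92 in the Lamtor1-deficient and 12.4 in the Torin1-treated cells. The M2 array stood far above the other 3. Fn1 was 20.1-fold lower in the Lamtor1-deficient cells, 11.2-fold lower with Torin1 and 96.0-fold lower in M1, the largest difference of any member measured on both arrays in M1.

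Tgfbi encodes an adhesion protein induced by transforming growth factor beta that binds collagens and integrins. Its probe (chr13:56740460-56740519 on mm9, + strand) read 6.01 in M1, 47.6 in M2, 0.495 in the Lamtor1-deficient and 0.790 in the Torin1-treated cells. It was 96.2-fold lower in the Lamtor1-deficient cells and 60.2-fold lower with Torin1, the largest difference of any member in both. In M1 it was 7.92-fold lower. The order of the low arrays was therefore not that of Fn1. M1 was the lowest for Fn1, and the Lamtor1-deficient and Torin1-treated arrays were the lowest for Tgfbi.

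Spp1 encodes osteopontin, a secreted phosphoprotein that macrophages make in quantity. It read 199 in M1, 34.4 in M2, 93.8 in the Lamtor1-deficient and 15.8 in the Torin1-treated cells. It was 2.72-fold higher in the Lamtor1-deficient cells and 2.18-fold lower with Torin1, so the direction differed between them, and it was 5.77-fold higher in M1. The windows of Tgfbi and Spp1, the gene most reduced in the IL-4 comparisons and one that went both ways, are printed with motifs in capitals as above. That of Fn1 was not at hand.
Tgfbi promoter (chr13:56609336-56609635, + strand): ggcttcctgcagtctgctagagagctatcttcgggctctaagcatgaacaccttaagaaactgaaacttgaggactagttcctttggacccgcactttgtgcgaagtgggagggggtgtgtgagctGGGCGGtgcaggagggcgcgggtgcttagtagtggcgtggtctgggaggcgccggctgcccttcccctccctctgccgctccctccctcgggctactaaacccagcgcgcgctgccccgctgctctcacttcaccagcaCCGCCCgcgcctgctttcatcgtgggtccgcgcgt
Spp1 promoter (chr5:104434861-104435160, + strand): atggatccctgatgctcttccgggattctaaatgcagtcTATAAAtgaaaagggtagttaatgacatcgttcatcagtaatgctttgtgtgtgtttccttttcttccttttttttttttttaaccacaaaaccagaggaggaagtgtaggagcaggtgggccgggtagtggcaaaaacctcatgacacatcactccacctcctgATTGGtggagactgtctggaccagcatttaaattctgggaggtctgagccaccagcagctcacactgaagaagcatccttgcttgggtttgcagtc
The Tgfbi window held 2 GC boxes and no TATAAA or CCAAT. That of Spp1 held TATAAA and CCAAT and no GC box. GGGCGG was in 64.5% of the 31 member windows and 35.7% of all windows, and TATAAA in 19.4% and 13.6%. The palindrome bound by STAT6, searched as TTCNNNNGAA, was in the Bgn window alone, against 6.95% of all windows, and the half-site AGGTCA of nuclear receptors in those of Fbln5 and Postn, against 16.3% of all windows. The lack of a motif in a window says only that its letters are not there.

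Thbs1 and Thbs2 encode thrombospondins, and Thbs1 is one that macrophages may express. It read 23.8 in M1, 5.59 in M2, 3.67 in the Lamtor1-deficient and 10.1 in the Torin1-treated cells and was 4.26-fold higher in M1. Thbs2 was at least 4.02-fold lower in the Lamtor1-deficient cells and at least 2.30-fold lower in M1, with 0.151 in M2 and 0.0785 with Torin1. It was not counted in either with normexp correction.

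Sparc, Postn and Ctgf are matricellular genes typical of stromal cells. Sparc, a collagen-binding protein, read 28.9 in M1, 74.0 in M2, 104 in the Lamtor1-deficient and 27.1 in the Torin1-treated cells. It was 2.73-fold lower with Torin1 and 2.56-fold lower in M1, with a second probe that gave nearly the same ratios. Postn, which encodes periostin, followed another order. It read 1.36 in M2 and 1.41 with Torin1, where the log2 ratio was 0.04, but 0.355 in the Lamtor1-deficient cells, 3.83-fold lower. In M1 it was not well above background and at least 20.8-fold lower.

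Ctgf, a secreted protein of the CCN family that responds to transforming growth factor beta and to the coactivator YAP, was another member to go opposite ways. It read 5.40 in M1, 5.84 in M2, 1.72 in the Lamtor1-deficient and 30.5 in the Torin1-treated cells. It was 3.40-fold lower in the Lamtor1-deficient cells and 5.22-fold higher with Torin1, and its M1 and M2 values lay within error of each other (log2 ratio -0.11 ± 0.20). Tnc, which encodes tenascin-C, was not well above background on any array.

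Read by class, the 6 genes that macrophages may express summed to a normalized signal of 233 in M1, 228 in M2, 106 in the Lamtor1-deficient and 40.1 in the Torin1-treated cells. Spp1 and Fn1 carried much of these sums, which without Spp1 were 34.04, 193.5, 12.4 and 24.2. The sums of M1 and M2 with all 6 were close, although Fn1 and Tgfbi were lower and Spp1, Thbs1, Vcan and Bgn were higher in M1. The M1 shares were 66.7% higher and 33.3% lower, against 19.2% and 17.2% of all genes. In the Lamtor1-deficient cells 2 of the 6 were lower and 1 was higher, and with Torin1 3 were lower. These were 33.3% lower and 16.7% higher, a single gene, against 6.14% and 6.24% of all genes, and 50.0% lower with Torin1 against 9.63%. The 7 broadly expressed genes summed to 8.71, 10.4, 13.1 and 10.3 in the same order, and 1 was lower in the Lamtor1-deficient and 1 in the Torin1-treated cells, 14.3% each, a single gene against the same shares of all genes. In M1 2 of the 7 were lower and none was higher, 28.6% lower against 17.2% of all genes.

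The 26 genes of the stromal class summed to 54.7 in M1, 142 in M2, 181 in the Lamtor1-deficient and 81.7 in the Torin1-treated cells. Their median log2 ratio was 0.23 in the Lamtor1-deficient cells, -0.62 with Torin1 and -1.62 in M1. In the Lamtor1-deficient cells 2 were higher and 4 lower, with Torin1 2 higher and 8 lower, and in M1 4 higher and 13 lower. The sums rest on a few bright probes, since without Sparc they were 68.4 in M2 and 77.3 in the Lamtor1-deficient cells, and without Ctgf 49.3 in M1 and 51.3 in the Torin1-treated cells. Against shares over all genes of 6.24% higher and 6.14% lower, 7.69% of the class were higher and 15.4% lower in the Lamtor1-deficient cells. With Torin1 7.69% were higher and 30.8% lower, against 8.62% and 9.63% of all genes, and in M1 15.4% and 50.0%, against 19.2% and 17.2%.

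Markers of fibroblasts that are not matrix genes were read beside these values. 11 of 15 were well above background in M2, 13 in the Lamtor1-deficient, 11 in the Torin1-treated and 9 in M1 cells, and they summed to 4.13, 8.48, 4.13 and 3.65. Tcf21 and Meox1 were not well above background on any array. 5 of the 15 were at least 2-fold higher in the Lamtor1-deficient cells and none was lower, with a median log2 ratio of 0.80. That was 33.3%, against 6.24% of all genes. The largest folds were those of Thy1 (0.811 against 0.204 in M2, 3.98-fold), Cxcl12 (3.19 against 1.11, 2.86-fold) and Cdh11 (0.409 against 0.145, 2.81-fold). With Torin1 the median was -0.31 and 1 marker, Ddr2, was lower (6.67%, against 9.63% of all genes). In M1 5 were lower and 1 was higher (33.3% and 6.67%, against 17.2% and 19.2%). In the Lamtor1-deficient cells Cxcl12 carried much of the difference in the marker sum, which without it was 5.30 against 3.01 in M2, and no fibril-forming collagen was 2-fold higher there. The part of fibroblasts in the matrix values was not tested.

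Of 8 smooth muscle and pericyte markers, 4 or 5 were well above background on each array, and their sums were 19.3 in M1, 24.7 in M2, 18.6 in the Lamtor1-deficient and 37.3 in the Torin1-treated cells. Myh11, Des and Rgs5, which define these cells, were not well above background on any array, whereas Acta2 and Tagln were on all 4 and made nearly all of each sum. Acta2 read 1.27 in M1, 9.67 in M2, 5.23 in the Lamtor1-deficient and 16.9 in the Torin1-treated cells, and Tagln 17.4, 12.1, 12.3 and 17.6. Actg2 and Cnn1 were 3.50-fold and 2.36-fold lower in the Lamtor1-deficient cells, as were Postn and Ctgf. Of 9 endothelial markers 6 or 7 were above background and the sums were 32.8, 24.7, 62.3 and 63.7, with Tek and Tie1 not well above background on any array. Pecam1, Cdh5, Cldn5, Esam and Kdr were well above background on all 4 arrays, and Emcn was at least 4.19-fold higher with Torin1. Vwf, at 5.91 in M1, 13.0 in M2, 50.1 in the Lamtor1-deficient and 53.0 in the Torin1-treated cells, made most of the difference of the last 2 from M2. Kdr read 25.98 in M1 and 11.1 in M2, and without it the sum was lower in M1, at 6.80 against 13.5. Of 8 markers of bone and fat stroma, 3 to 7 were above background. Of these, 1 was higher and 1, Ibsp, at least 2.74-fold lower in the Lamtor1-deficient cells, while Lepr and Alpl had log2 ratios of -0.11 and -0.01, and with Torin1 3 were lower and none higher, Alpl among them at least 3.80-fold. These shares were 12.5% each way and 37.5% lower, against 6.24%, 6.14% and 9.63% of all genes. In M1 3 were higher and 1 lower, 37.5% and 12.5% against 19.2% and 17.2% of all genes. Just 2 of the 8 were well above background on both the M1 and the M2 array. Adipoq, the fat cell hormone adiponectin, read 0.639 in M2, 6.44 in the Lamtor1-deficient and 0.192 in the Torin1-treated cells and was not well above background in M1. The part of these cell types in the matrix values was not tested.

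**Figure D4:**
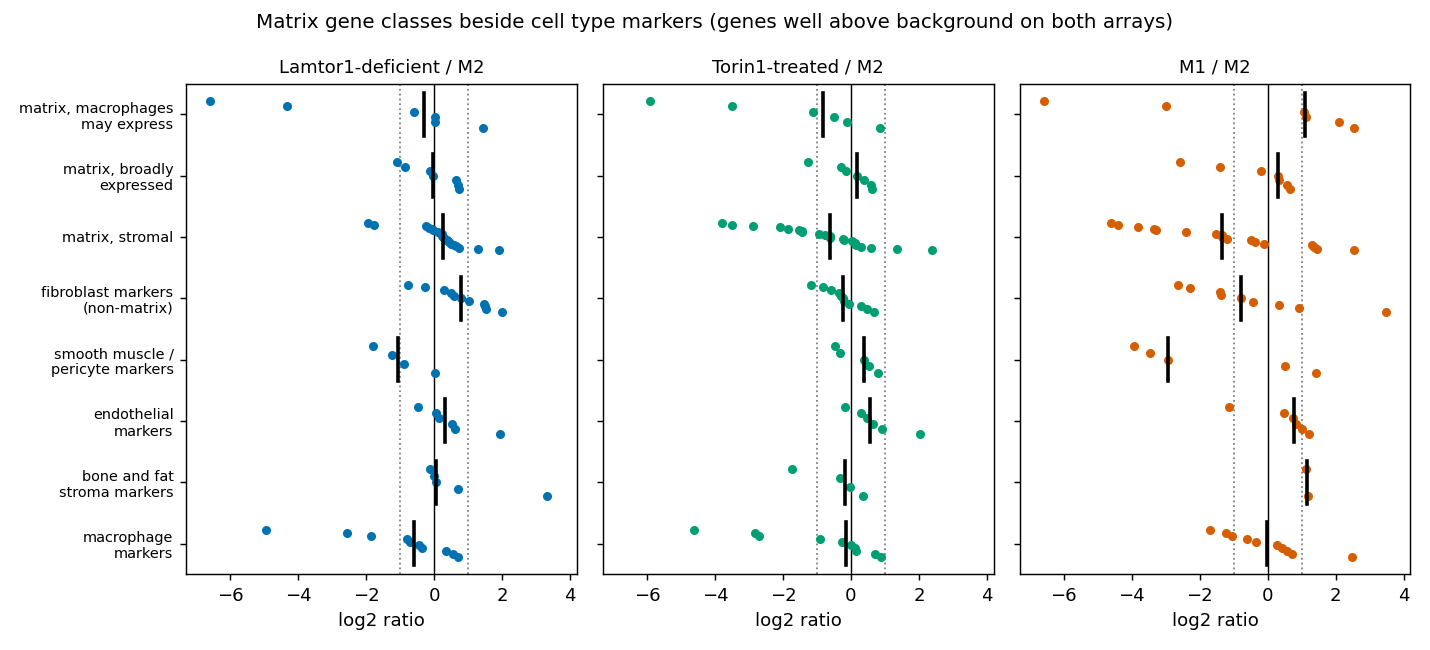
Log2 ratio to wild-type M2 of the matrix genes by class and of cell type markers, for genes well above background on both arrays. Each point is 1 gene, vertical bars are medians and dotted lines mark 2-fold. In the left panel most fibroblast markers lie right of 0 (median 0.80), and the 2 points at the far left of the top row are Tgfbi and Fn1, while in the middle panel the stromal matrix genes spread left (median -0.62) and the fibroblast markers run from -1.17 to 0.69 with a median of -0.24.

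The receptors and the growth factor pathway of the matrix were read last. Of 22 matrix receptors, 4 were higher and 2 lower in the Lamtor1-deficient cells, 3 higher and 4 lower with Torin1, and 3 higher and 8 lower in M1. The shares were 18.2% and 9.09%, 13.6% and 18.2%, and 13.6% and 36.4%, against 6.24% and 6.14%, 8.62% and 9.63%, and 19.2% and 17.2% of all genes. Sdc1, a syndecan that binds matrix proteins through heparan sulfate, read 8.60 in M1, 7.68 in M2, 29.5 in the Lamtor1-deficient and 117 in the Torin1-treated cells. Itga6, the alpha chain of a laminin receptor, read 5.87, 19.6, 5.68 and 3.69. It was 3.46-fold and 5.32-fold lower in the Lamtor1-deficient and Torin1-treated cells. Sdc4, a further syndecan, was 9.83-fold lower with Torin1 (0.463 against 4.55).

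Of 23 genes of transforming growth factor beta signalling, which induces many matrix genes including Fn1, Tgfbi and Ctgf, 2 were higher and 3 lower in the Lamtor1-deficient cells, 4 higher and 3 lower with Torin1, and 6 higher and 11 lower in M1. The shares were 8.70% and 13.0%, 17.4% and 13.0%, and 26.1% and 47.8%, to be read against the same shares of all genes. Their median log2 ratios were -0.13, 0.27 and -0.90. Acvrl1, a type I receptor, read 17.9 in M2, 6.18 in the Lamtor1-deficient and 3.099 in the Torin1-treated cells. Smad6, an inhibitor of the pathway, was 5.44-fold higher with Torin1.

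**Figure D5:**
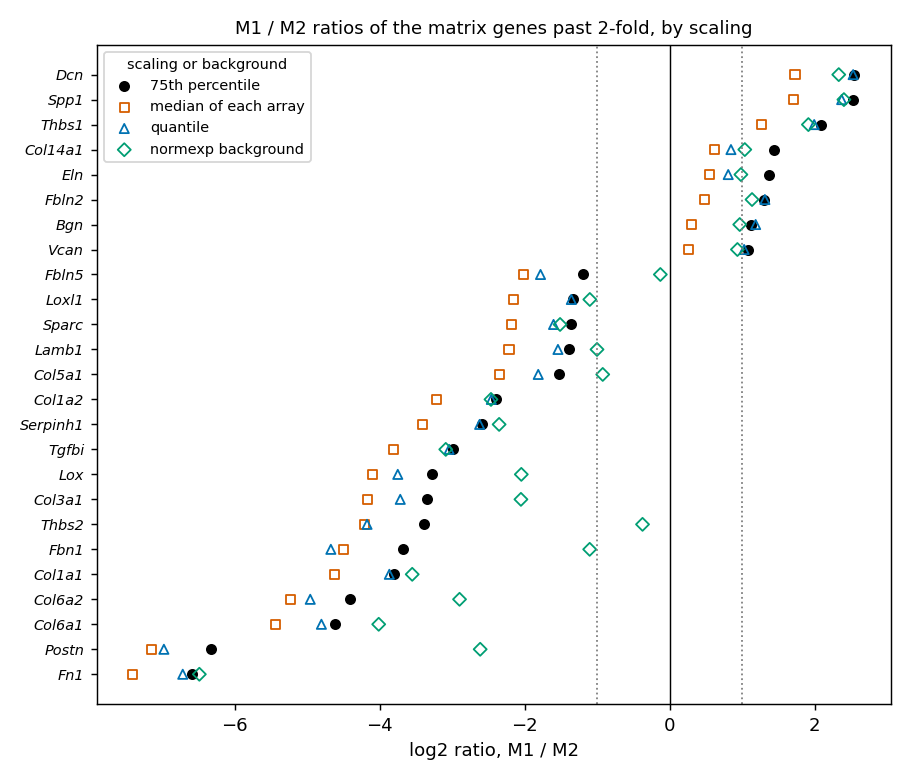
Log2 ratio of M1 to M2 for the matrix genes past 2-fold under the 75th percentile scaling (filled circles), and the same ratio with the arrays scaled to their medians, quantile normalized or background-corrected by normexp. Dotted lines mark 2-fold. Median scaling shifts all genes to the left and leaves Dcn, Spp1 and Thbs1 past 2-fold on the higher side, and no gene changes sign, although normexp brings Thbs2 and Fbln5, which are dim in M1, close to 0.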

How the data were processed

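Total RNA of 4 cultures was labelled with Cy3 and hybridised to 1 Agilent SurePrint G3 mouse array each. The deposited files were the scanner output, with intensity per spot, and a table of the authors' processed values. That table gave the same calls and served as an alternative. Per the labels the intensities came from Agilent Feature Extraction 10.5.1.1, although the file headers name 10.7.3.1, which corrects the signal for background. Of 62976 spots per array 3671 were controls and were left out, as were 170 to 226 spots marked as outliers. No spot was saturated.

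As in the study's methods, signals under 1.0 were set to 1.0, each array was divided by its 75th percentile, here over 55681 probes with their spots averaged, and M2 was the control. Log2 ratios, the software's error propagated to the ratio, and folds were computed with Python 3.11.15, NumPy 2.4.6 and pandas 2.3.3. The normexp correction (offset 50) used limma 3.58.1 in R 4.3.3. The number of arrays limits the precision. The steps were tested on simulated data. Alternatives were 3 other scalings, normexp, 2 treatments of dim probes, the mean of all probes, outlier spots kept, a 3-fold threshold and the authors' table.

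All members with a difference of at least 2-fold in some comparison were given with their values, and from each marker or pathway list at most 3 genes with the largest folds between IL-4-stimulated arrays. The values of 1 gene named by that rule are not reported here. Ddr2 and all other markers beyond these were named with their values already seen. The members and lists were chosen with earlier results of these data known. Probe positions are those of the array's annotation (mm9). Gene identifiers of all 39 members were found in the RefSeq table, Ctgf under its later symbol Ccn2.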

Additional observations from a re-analysis of the deposited data

Results flagged for a closer look

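Spp1 and Ctgf went opposite ways in the 2 IL-4 comparisons. The log2 ratio of Spp1 to M2 was 1.45 in the Lamtor1-deficient cells and -1.12 in the Torin1-treated cells. That of Ctgf was -1.77 and 2.38. Both comparisons share the wild-type M2 array, each condition had 1 array, and the differences were not tested.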

How the results depend on the processing

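No paired analysis was possible because each condition had 1 array. No member's call turned to the other direction under any of the 10 alternatives. Of 90 summary values, 72 moved little, 17 moved and 1 reversed. With arrays shifted to their medians the members' median log2 ratio was -0.55 with Torin1 and -2.16 in M1, where 3 members were higher, since Bgn, Col14a1, Eln, Fbln2 and Vcan fell below 2-fold. With quantile normalization the medians were -0.46 and -1.54. Those of all genes were -0.30 with Torin1 and -0.07 in M1 with median scaling, and -0.04 and -0.06 with quantile normalization. With normexp correction 4 members were lower in the Lamtor1-deficient cells and 5 higher in M1. The Torin1 median was then -0.15 and the M1 median reversed to 0.062, while those of all genes were 0.21 and 0.76. The cause was not tested. Over members measured on both arrays alone the M1 median was -0.44. With the mean of all probes the medians were 0.23, -0.50 and -1.07 in the Lamtor1-deficient, Torin1-treated and M1 cells, and the log2 ratios of Fbln5 reversed to 0.15 with Torin1 and 0.25 in M1. At a 3-fold threshold 6 of the 10 calls in the Lamtor1-deficient cells were kept, Dcn as higher and Tgfbi, Fn1, Thbs2, Postn and Ctgf as lower. With Torin1 1 member was higher and 7 were lower, and in M1 3 were higher and 11 lower. The share of all genes past 3-fold was not computed. Of the values of single genes, 911 were labelled as having moved little, 194 as moved and 2, those of Fbln5, as reversed. The moved values include other changes of sign. With normexp correction the M1 log2 ratio of Col5a2 went from -1.83 to 0.39 and that of Col12a1 from -2.75 to 0.062. That of Fbln1 went from -1.77 to 0.33 and that of Lum from -1.71 to 0.38. None of these genes was well above background in M1, and none was counted there. Smaller log2 ratios, such as that of Lama4 in M1 (-0.50 to 0.18), also changed sign. Dim probes limit the precision, since their repeated spots varied more within an array. Combined over the 2 arrays of a ratio, the SD was 0.267 to 0.431 on the log2 scale, which bears on Col5a2, Col8a1, Col12a1, Fbln1, Lum and Thbs2. With 1 array per condition, a difference between cultures cannot be told apart from one between conditions.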
